A study of Mus musculus with 12 samples.

Results

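The Eif1a-like genes are a family of copies of the translation initiation factor gene Eif1a, arrayed together on mouse chromosome 12. The genes described here are 5 of these copies (Gm2016, Gm2022, Gm2035, Gm2046 and Gm5662) and the 2 parent genes, Eif1a itself and the X-linked Eif1ax. They were measured by every probe set, that is, every line of the expression table, whose annotation gave one of the 7 symbols, alone or in a list with others. This found 10 probe sets of the 41345 in the table. Of these, 8 belonged to the copies and 2 to the parents, and 8 of the 10 passed a filter on low values (6 of the copies and both parents). The genes were chosen from values measured on these same arrays, with the difference between genotypes known, so that difference is described for the copies and not tested as a finding. The contrasts of passage, and of the change in the genotype difference with passage, use the same arrays. For the copies they carry the same limit.

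The arrays measured RNA from mouse bone marrow cells enriched for Kit, a receptor of blood progenitors. All cells carried floxed Tet2 alleles (Tet2fl/fl), a Cre recombinase fused to the oestrogen receptor (CreER), and a MigR1 retrovirus that made both GFP and AML1-ETO, a fusion protein of acute myeloid leukaemia. Tet2 is an enzyme that oxidises 5-methylcytosine in DNA. The cells were replated in methylcellulose, then grown in suspension with SCF, IL-3 and IL-6, and treated either with 4-hydroxytamoxifen, which lets CreER excise Tet2 (labelled Tet2-/-), or with ethanol (labelled Tet2fl/fl). The Tet2fl/fl cells therefore never received the drug, so the effects of the drug, of active Cre and of losing Tet2 cannot be told apart. Cells positive for GFP and for CD16/32 and negative for CD11b and Gr1, a gate for immature myeloid cells, were sorted at passage 2 (p2) and passage 10 (p10). Each of the 4 groups has 3 arrays. Whether replicates came from separate cultures or mice is not stated in the labels, so a p-value here measures only the spread between these samples, which may be technical.

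The factor eIF1A, encoded by Eif1a and Eif1ax, binds the small ribosomal subunit beside eIF1. It keeps the subunit open for scanning along the mRNA, helps to choose the start codon, and later contacts eIF5B when the large subunit joins. The Eif1a-like copies are known from the mouse embryo at the 2-cell stage and from the rare embryonic stem cells that resemble it, where they are transcribed together with genes such as the Zscan4 family.

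Promoter sequences were compared for Gm2046, for related copies and for a parent. The promoters of Gm2016, Gm2022, Gm2035 and Gm5662 were not compared here. Windows from 250 bases before to 50 bases after the annotated start (RefSeq, GRCm38.p6, plus strand) were read for Gm2046 (chr12:87970578-87970877), for Gm4027 (chr12:87618659-87618958) and BB287469 (chr12:87816327-87816626), 2 further copies that share an annotation with Gm2022 on 1 probe set, and for the parent Eif1ax (chrX:159371928-159372227). Capitals mark CG dinucleotides, the sites at which DNA is methylated in mammals.
Gm2046: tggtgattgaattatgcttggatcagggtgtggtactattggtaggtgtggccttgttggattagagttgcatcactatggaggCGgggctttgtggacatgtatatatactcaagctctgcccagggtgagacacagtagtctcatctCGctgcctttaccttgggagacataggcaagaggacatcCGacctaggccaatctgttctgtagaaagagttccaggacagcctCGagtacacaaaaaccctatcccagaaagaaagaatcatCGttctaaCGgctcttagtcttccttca
Gm4027: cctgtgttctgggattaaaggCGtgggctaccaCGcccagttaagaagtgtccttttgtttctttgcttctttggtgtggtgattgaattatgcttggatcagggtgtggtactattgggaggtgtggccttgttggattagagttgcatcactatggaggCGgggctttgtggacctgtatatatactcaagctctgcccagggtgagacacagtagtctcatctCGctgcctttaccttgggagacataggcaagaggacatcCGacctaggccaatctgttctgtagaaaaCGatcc
BB287469: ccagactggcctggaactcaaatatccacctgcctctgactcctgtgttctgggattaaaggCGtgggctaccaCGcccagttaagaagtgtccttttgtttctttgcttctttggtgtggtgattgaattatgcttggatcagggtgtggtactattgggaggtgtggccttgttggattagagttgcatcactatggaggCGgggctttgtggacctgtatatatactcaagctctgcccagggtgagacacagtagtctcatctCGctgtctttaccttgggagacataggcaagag
Eif1ax: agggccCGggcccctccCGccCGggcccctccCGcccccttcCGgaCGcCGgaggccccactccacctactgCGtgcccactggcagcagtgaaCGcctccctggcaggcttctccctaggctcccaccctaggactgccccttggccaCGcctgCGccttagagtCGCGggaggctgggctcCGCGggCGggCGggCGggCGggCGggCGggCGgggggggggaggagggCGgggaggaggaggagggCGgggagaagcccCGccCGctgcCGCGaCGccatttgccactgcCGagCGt

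The windows of Gm2046 and Gm4027 aligned over 216 positions, of which 214 (99.1%) were identical, with a longest unbroken match of 116. Gm4027 and BB287469 matched at 258 of 259 aligned positions (99.6%), and Gm2046 and BB287469 at 179 of 182 (98.4%). None of the 3 aligned with the Eif1ax window over more than 12 positions. The windows of Gm2046, Gm4027 and BB287469 held 6, 6 and 4 CG dinucleotides, where the median of 32851 windows of the same length was 7. The Eif1ax window held 31, and 90.5% of windows held that many or fewer. The letters TATATA, read on both strands, stood in the window of each of these 3 copies and in 5.67% of all windows, and were not in the Eif1ax window. GGGCGG or its reverse complement CCGCCC stood in the Eif1ax window and in 35.7% of all windows, and in none of the copies' windows. These are matches of letters only, and DNA methylation was not measured here.

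Copies as alike in their promoters as Gm2046, Gm4027 and BB287469 may also share array probes. The promoters of the other copies, and the transcripts of all of them, were not compared here. The probe sequences were not used here, so a signal cannot be assigned to 1 copy, and a probe set is called below by its annotated symbols. Values are log2 RMA values as deposited, which are relative within a probe set, so the level of one probe set is not set against another's. In bulk RNA, more expressing cells and more RNA per cell cannot be told apart.

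The 12 arrays had medians between 5.57 and 5.68. Tet2 itself averaged 9.97 in Tet2fl/fl and 9.94 in Tet2-/- arrays at p2, and 9.88 and 9.83 at p10, differences of -0.03 ± 0.10 (limma adjusted p = 0.954) and -0.05 ± 0.10 (adjusted p = 0.949). The probe set did not separate the labelled genotypes, and whether its probes lie in the excised exons was not examined here. Granule and progenitor genes of the myeloid list, such as Mpo and Elane, averaged 9.90 to 10.93 per array, and the mast cell and basophil list 10.86 to 11.85. The erythroid (2 of 5 genes tested) and lymphoid (3 of 5) markers had no gene called between genotypes, nor at an unadjusted p under 0.05. Values after ± are standard errors from limma unless given as SD, and n = 3 arrays per group throughout.

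Every probe set of the copies that passed the filter was higher in Tet2-/- than in Tet2fl/fl cells at both passages. Over the 6 probe sets the median difference was 1.66 on the log2 scale at p2 and 2.85 at p10, beside medians of 0.02 and 0.01 over all 28941 probe sets tested. In each of the 6, all 6 Tet2-/- arrays lay above all 6 Tet2fl/fl arrays, a pattern found in 0.556% of the probe sets tested. Within passages the groups did not overlap in 6 of 6 at p2 and in 6 of 6 at p10, where 8.68% and 6.71% of probe sets showed this in the same direction. At an adjusted p under 0.05, limma called 0 of the 6 higher at p2 and 4 of the 6 at p10 (the probe sets Gm5662, Gm2022, Gm2046 and the shared Gm4027/BB287469/Gm5039/Gm2022). The background of such calls was 0% at p2 and 0.0276% at p10. All 6 had an unadjusted p under 0.05 at both passages, as did 2561 of the 28941 probe sets at p2 and 2418 at p10. With the replicate number as a block the p10 count stayed at 4, while all calls in this contrast rose from 14 to 34 probe sets. Among the p10 arrays of Tet2-/- cells, leaving out replicate 2 gave a p10 count of 0, leaving out replicate 3 gave 1 and leaving out replicate 1 gave 6. Leaving out replicate 2 of Tet2fl/fl p10 gave 1. Because the copies were chosen with these values known, nothing further is read from these counts.

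**Figure D1:**
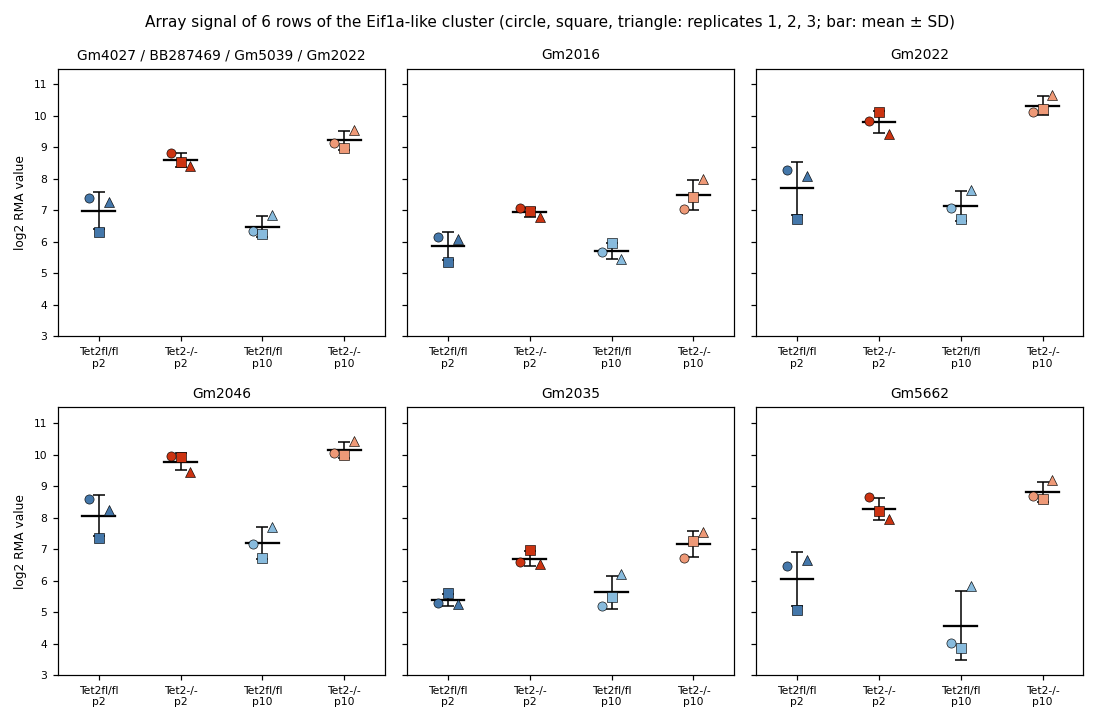
Log2 values of the 6 Eif1a-like probe sets that passed the filter, 1 panel each, with 1 point per array (circle, square and triangle for replicates 1, 2 and 3) and bars for the group mean ± SD, for Tet2fl/fl and Tet2-/- cells at p2 and p10. In every panel the 6 Tet2-/- points lie above the 6 Tet2fl/fl points, and the difference between the group means is larger at p10, from 1.55 for Gm2035 to 4.26 for Gm5662.

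Gm5662 (probe set 17282950) ranked first of all probe sets tested by its higher value in Tet2-/- cells at both passages. At p2 it read 6.45, 5.05 and 6.64 in Tet2fl/fl replicates 1 to 3 and 8.64, 8.20 and 7.95 in Tet2-/- replicates 1 to 3. The lowest Tet2-/- array was 1.31 above the highest Tet2fl/fl array. At p10 the Tet2fl/fl arrays read 4.00, 3.87 and 5.82, and the Tet2-/- arrays 8.70, 8.59 and 9.18. The gap between the groups was then 2.77, and 2 of the 3 Tet2fl/fl arrays were below the filter level of 4.70. The difference was 2.22 ± 0.52 at p2, a fold of 4.65, and 4.26 ± 0.52 at p10, a fold of 19.1. The p10 fold is set against a Tet2fl/fl mean (4.57) under the filter level, no detection call was used here, and its size is therefore uncertain. Replicate spread was wider in Tet2fl/fl cells (SD 0.87 at p2 and 1.09 at p10) than in Tet2-/- cells (SD 0.35 and 0.32).

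Gm2022 (probe set 17277679) ranked second at both passages. Its p2 arrays read 8.27, 6.74 and 8.09 in Tet2fl/fl and 9.85, 10.12 and 9.42 in Tet2-/- cells. Its p10 arrays read 7.08, 6.71 and 7.65 in Tet2fl/fl and 10.11, 10.20 and 10.66 in Tet2-/- cells. The groups stood apart by 1.15 at p2 and by 2.45 at p10, and Tet2fl/fl replicate 2 was the lowest array at p2. The difference was 2.09 ± 0.38 at p2 (4.27-fold) and 3.17 ± 0.38 at p10 (9.03-fold).

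Gm2046 (probe set 17277694), whose promoter is printed above, read 8.60, 7.35 and 8.24 in Tet2fl/fl and 9.96, 9.92 and 9.45 in Tet2-/- arrays at p2. At p10 it read 7.17, 6.70 and 7.72 in Tet2fl/fl and 10.04, 9.97 and 10.44 in Tet2-/- arrays. Again no Tet2fl/fl array reached a Tet2-/- array, with gaps of 0.86 and 2.26. The difference was 1.72 ± 0.32 at p2 (3.29-fold) and 2.96 ± 0.32 at p10 (7.76-fold).

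The shared probe set of Gm4027, BB287469, Gm5039 and Gm2022 (17277654) read 7.40, 6.31 and 7.26 in Tet2fl/fl and 8.83, 8.53 and 8.39 in Tet2-/- arrays at p2. At p10 it read 6.34, 6.24 and 6.86 against 9.13, 8.98 and 9.55. It showed the same order of arrays in Tet2fl/fl cells, with replicate 2 lowest at p2 and replicate 3 highest at p10. The difference was 1.59 ± 0.28 at p2 (3.02-fold) and 2.74 ± 0.28 at p10 (6.67-fold).

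Gm2016 (probe set 17277668) and Gm2035 (probe set 17282929) had the smallest differences of the 6 at p10. Gm2016 read 6.15, 5.36 and 6.08 in Tet2fl/fl and 7.06, 6.98 and 6.78 in Tet2-/- arrays at p2, then 5.68, 5.96 and 5.47 against 7.04, 7.44 and 7.99 at p10. Its difference was 1.08 ± 0.26 at p2 (2.11-fold) and 1.79 ± 0.26 at p10 (3.45-fold), with an adjusted p of 0.0505 at p10. Gm2035 read 5.27, 5.61 and 5.26 in Tet2fl/fl and 6.59, 6.99 and 6.52 in Tet2-/- arrays at p2, then 5.20, 5.47 and 6.20 against 6.72, 7.27 and 7.53 at p10. Its difference was 1.32 ± 0.27 at p2 (2.50-fold) and 1.55 ± 0.27 at p10 (2.93-fold), with an adjusted p of 0.0917 at p10. Gm2016 lay just outside the threshold of 0.05 and Gm2035 further from it, and Gm5662 (0.0171) was nearest to it among the copies called. As the copies were chosen with these values known, the adjusted p-values describe them and are not read as tests. In Gm2035, unlike the others, Tet2fl/fl replicate 2 was the highest array of its group at p2.

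The remaining 2 probe sets of the copies were below the filter and their values were low in every group. The probe set annotated to Gm5039 and Gm5662 (17282958) read 2.37, 2.70 and 2.03 in Tet2fl/fl and 2.76, 3.03 and 3.08 in Tet2-/- arrays at p2, then 2.39, 2.02 and 2.24 against 2.93, 3.57 and 3.97 at p10. Its differences were 0.59 ± 0.24 and 1.27 ± 0.24, and its groups did not overlap at either passage. A further Gm5662 probe set (17282961) read 2.98, 2.96 and 3.67 in Tet2fl/fl and 3.32, 3.50 and 3.62 in Tet2-/- arrays at p2, then 2.86, 3.48 and 3.26 against 3.89, 3.52 and 3.56 at p10. Its groups overlapped at p2, and the differences were 0.28 ± 0.21 and 0.46 ± 0.21. The 3 probe sets that name Gm5662 thus differed in size, 4.26, 1.27 and 0.46 at p10.

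The copies varied together across arrays. The mean of the 6 probe sets was 7.02, 6.07 and 6.93 in Tet2fl/fl and 8.49, 8.46 and 8.09 in Tet2-/- replicates 1 to 3 at p2, and 5.91, 5.83 and 6.62 against 8.62, 8.74 and 9.23 at p10. Tet2fl/fl p2 replicate 2 stood 0.60 below its group mean, and Tet2fl/fl p10 replicate 3 stood 0.50 above its own. Pairwise Pearson correlations among the 6 ran from 0.84 to 0.99 (median 0.94) over the 12 arrays, which fall into genotype groups. With each group's mean taken out they ran from 0.06 to 0.97 (median 0.57). The probe sets share arrays and may share probes, so these are descriptions.

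Passage compared cells kept in culture longer with cells sampled early, within each genotype. In Tet2fl/fl cells 5 of the 6 probe sets had lower means at p10 than at p2, with a median difference of -0.53, and limma called 0 of the 6. The background was 0% of probe sets called in either direction, with 3063 at an unadjusted p under 0.05, among them 2 of the 6 copies. Those 2 were Gm5662, at -1.48 ± 0.52 (adjusted p = 0.395), and Gm2046, at -0.86 ± 0.32 (adjusted p = 0.417). Gm2035 had the only positive value, 0.24 ± 0.27 (adjusted p = 0.757). The p2 and p10 arrays overlapped in all 6, where 6.68% of the probe sets tested separated upwards and 8.37% downwards.

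In Tet2-/- cells all 6 differences between p10 and p2 were positive, from 0.38 for Gm2046 to 0.63 for the shared probe set, with a median of 0.54. None passed the test. The shared probe set had the smallest adjusted p, 0.234, and was the 1 member of the 6 with an unadjusted p under 0.05. The groups did not overlap for this probe set and for Gm2046, 2 of 6, where 12.5% of all probe sets showed such a separation upwards. Tet2-/- p10 replicate 3 was the highest array in all 6. The change in the genotype difference from p2 to p10 (the interaction) was positive in all 6, from 0.23 ± 0.38 for Gm2035 to 2.04 ± 0.74 for Gm5662, with a median of 1.11. Adjusted p was 1.00 for each, and 0% of probe sets were called for this contrast, with 917 at an unadjusted p under 0.05. A larger difference at p10 than at p2 was therefore not established by the test of the change itself. That test contains the genotype differences known when the copies were chosen, so its values for the copies are descriptions.

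Neither parent gene passed the test between genotypes. Eif1a (probe set 17350356) read 9.17, 9.41 and 9.29 in Tet2fl/fl and 9.23, 9.38 and 9.37 in Tet2-/- arrays at p2. At p10 it read 9.19, 9.28 and 9.21 against 8.86, 9.32 and 9.13. Its groups overlapped at both passages. The genotype difference was 0.03 ± 0.12 at p2 (adjusted p = 0.954, 95% interval -0.22 to 0.29) and -0.12 ± 0.12 at p10 (adjusted p = 0.861, 95% interval -0.38 to 0.13). From p2 to p10 it differed by -0.07 ± 0.12 (adjusted p = 0.863) where Tet2 was floxed and by -0.22 ± 0.12 (adjusted p = 0.309) where it was deleted.

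Eif1ax (probe set 17539158) fell with passage in Tet2-/- cells. It read 10.24, 10.27 and 10.36 in Tet2fl/fl and 10.42, 10.47 and 10.50 in Tet2-/- arrays at p2. At p10 it read 10.03, 10.20 and 10.09 in Tet2fl/fl and 10.01, 10.07 and 10.00 in Tet2-/- arrays. The 3 Tet2-/- arrays at p10 lay 0.34 below the lowest Tet2-/- array at p2. Of all probe sets tested, 14.7% separated downwards in this way. The difference from p2 to p10 was -0.43 ± 0.08 (limma adjusted p = 0.0419, and 0.0303 with the replicate number as a block), where 0.715% of probe sets were called lower. The call lay near the threshold of 0.05. It was lost when any 1 of 9 of the 12 arrays was left out, although the difference stayed between -0.46 and -0.41. Those arrays were Tet2fl/fl p2 replicate 1 (adjusted p = 0.0560) and replicate 2 (0.0550), Tet2-/- p2 replicates 1, 2 and 3 (0.132, 0.0756 and 0.120), Tet2fl/fl p10 replicate 2 (0.0553), and Tet2-/- p10 replicates 1, 2 and 3 (0.0556, 0.143 and 0.110). The Tet2fl/fl arrays are not part of this contrast, and leaving them out kept the difference at -0.43 and moved only the adjusted p. Over all alternatives the adjusted p ran from 0.0138 to 0.143.

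In Tet2fl/fl cells Eif1ax differed between passages by -0.18 ± 0.08 (adjusted p = 0.449), and the interaction was -0.25 ± 0.11 (adjusted p = 1.00), so a difference in passage effect between genotypes was not established. Between genotypes it differed by 0.17 ± 0.08 at p2 (adjusted p = 0.553, 95% interval 0.0068 to 0.34) and by -0.08 ± 0.08 at p10 (adjusted p = 0.866, 95% interval -0.25 to 0.087). The order of its group means, from 10.46 in Tet2-/- p2 through 10.29 in Tet2fl/fl p2 and 10.11 in Tet2fl/fl p10 to 10.03 in Tet2-/- p10, had no neighbours that passed the test. Across the 12 arrays the 6 copies correlated with Eif1a at -0.33 to -0.14 and with Eif1ax at -0.10 to 0.12.

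**Figure D2:**
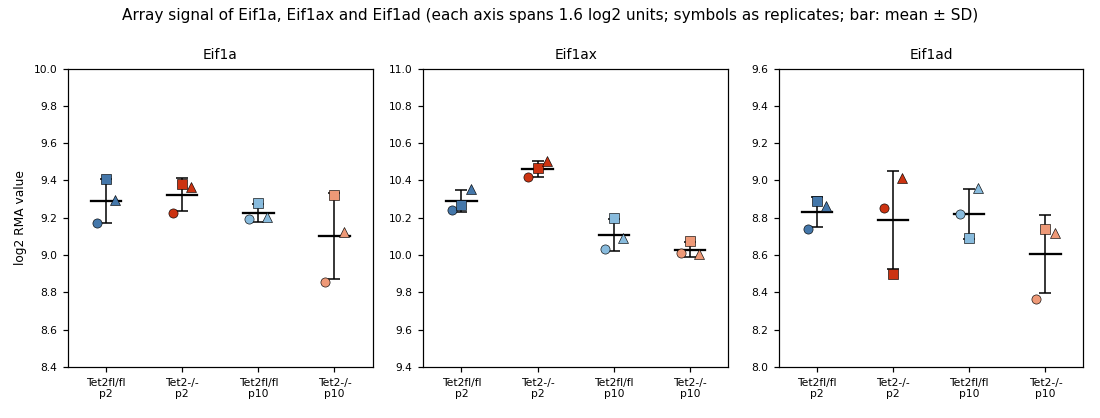
Log2 values of the parent genes Eif1a and Eif1ax and of the related gene Eif1ad, each on its own vertical axis, with 1 point per array (circle, square and triangle for replicates 1, 2 and 3) and bars for the group mean ± SD, in the same 4 groups. Eif1a overlaps between all groups, and the Eif1ax points of Tet2-/- cells at p10 (10.00 to 10.07) lie below those at p2 (10.42 to 10.50). Such a downward separation was found in 14.7% of the probe sets tested.

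Genes lying among the copies were compared, a comparison chosen after the values were seen. In the order of the GRCm38.p6 gene table, which was used for names only, the stretch from Gm8300 to Gm10264 holds 61 annotated genes, 18 protein coding and 43 pseudogenes. The arrays had 20 probe sets there, of which 8 are those of the 5 copies and 12 name only other genes. Probe sets with several symbols were placed by any listed gene within the stretch. Snrpa/Gm21559/Gm5161, which passed the filter, and Pramel29/Gm2042, which did not, may therefore detect genes elsewhere. Of the 12, 5 passed the filter and 0 were called by limma at either passage, with 0 at p2 and 0 at p10 at an unadjusted p under 0.05. The eIF1A family gene Gm8300 differed by 0.06 at p2 (adjusted p = 0.899) and -0.16 at p10 (adjusted p = 0.786). Gm1995 differed by 0.03 (adjusted p = 0.966) and 0.02 (adjusted p = 0.991), and Gm7104 by 0.17 (adjusted p = 0.896) and 0.11 (adjusted p = 0.965).

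A probe set annotated to BB287469 and Gm4027 but not to Gm2022 was below the filter and differed by 0.44 at p2 and 0.14 at p10. Both probe sets of Oog1, an oocyte gene of the Pramel family, were also below it, with differences between -0.15 and 0.07. Pramel51, of the same family and below the filter, differed by -0.14 at p2 and 0.71 at p10, where its groups did not overlap. Beyond the stretch, the 9 probe sets of the flanking genes from Alkbh1, a nucleic acid demethylase, to Dio2, a thyroid hormone deiodinase, all passed the filter. Of these, 0 were called, with 2 at p2 and 4 at p10 at an unadjusted p under 0.05. Such a p was found for 2561 and 2418 of all 28941 probe sets. Adck1 differed by 0.16 and 0.45 (adjusted p = 0.784 and 0.436), Snw1, a splicing factor, by 0.19 and 0.23, and the 2 probe sets of Dio2 by -0.43 and -0.55 at p2 and -0.55 and -0.59 at p10.

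**Figure D3:**
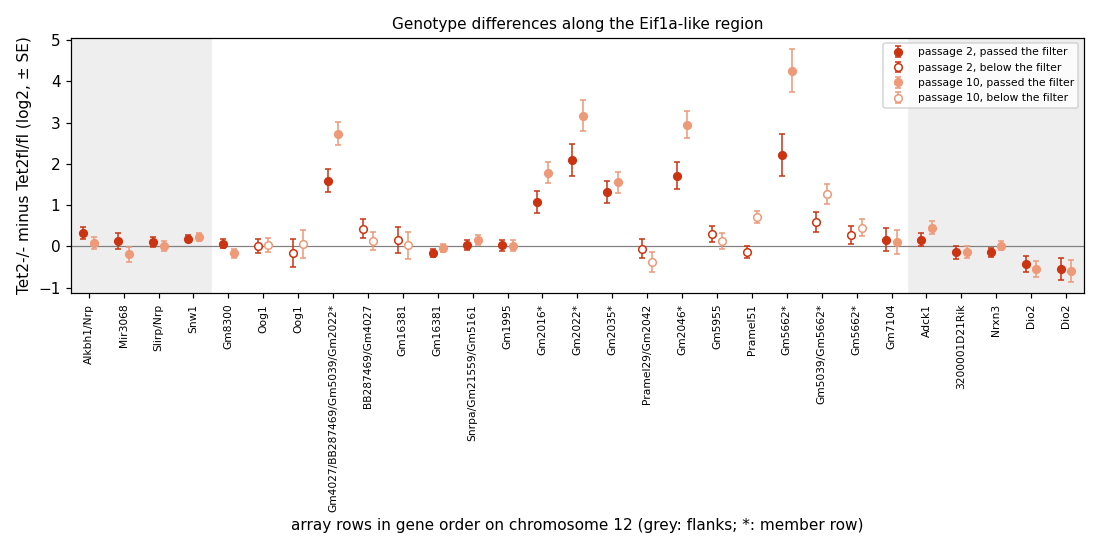
Differences between Tet2-/- and Tet2fl/fl cells (log2, with limma's standard error as bars) at p2 (dark) and p10 (light) for the probe sets of the copies, of other genes among them and of flanking genes (grey ground), in gene order, with open points for those below the filter and an asterisk on the copies. The 6 probe sets of the copies that passed the filter stand at 1.08 or more. None of the probe sets of other genes exceeds 0.71 at either passage.

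Of 17821 probe sets with 1 symbol, the one most like the copies over the 12 arrays was annotated to Tmed10, a cargo receptor of the early secretory pathway (probe set 17547670). Its Pearson correlation was 0.997 with Gm2022, 0.994 with the shared probe set, 0.993 with Gm2046, 0.979 with Gm5662 and 0.948 with Gm2016. Group means were not taken out for this measure. As the copies separate the genotypes, any probe set that also does so can score high for that alone. It read 8.45, 7.23 and 8.20 in Tet2fl/fl and 9.75, 9.73 and 9.39 in Tet2-/- arrays at p2, and 7.26, 7.18 and 7.87 against 9.77, 9.88 and 10.44 at p10. The arrays stood in nearly the same order as in Gm2046, and the difference was 1.66 ± 0.31 at p2 and 2.59 ± 0.31 at p10.

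The other 2 probe sets annotated to Tmed10 read differently. One of them (17282723) stayed between 11.66 and 11.84 on all arrays and differed by 0.05 ± 0.07 (adjusted p = 0.877) and 0.09 ± 0.07 (adjusted p = 0.829). The other (17547668) differed by -0.02 ± 0.20 (adjusted p = 0.984) and 0.14 ± 0.20 (adjusted p = 0.921). Probe sets of a single annotated gene thus disagreed, and which transcript 17547670 detects was not tested. A pair of probe sets without any symbol, 17282936 and 17547711, differed by 1.69 and 1.24 at p2 and by 2.51 and 1.48 at p10. Their correlations with the mean of the 6 copies were 0.943 and 0.961.

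**Figure D4:**
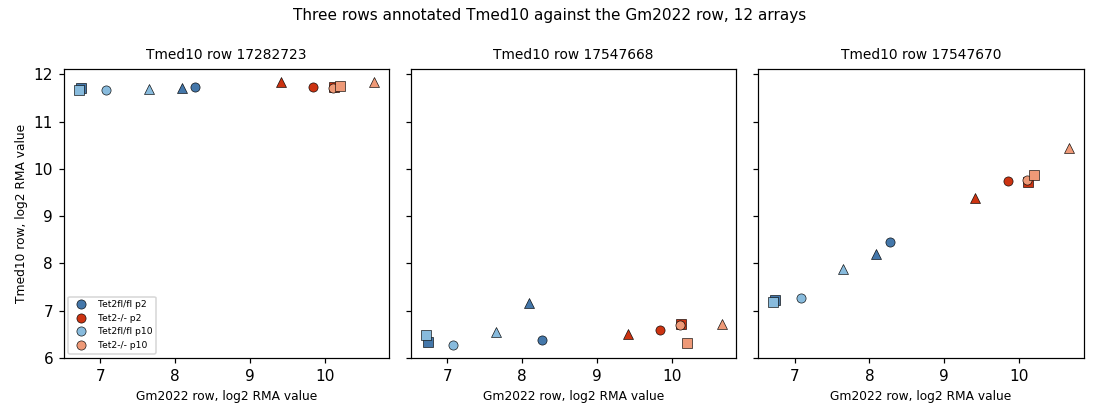
Log2 values of the 3 probe sets annotated to Tmed10 (vertical axes) against those of the Gm2022 probe set (horizontal axes), with 1 point per array, coloured by group, and circle, square and triangle for replicates 1, 2 and 3. Probe set 17547670 rises along a line with Gm2022 across the 12 arrays (Pearson correlation 0.997), while 17282723 stays between 11.66 and 11.84.

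Beyond Tmed10, other genes were named by the same measure, with the same limit. Usp28, a deubiquitinating enzyme, stood at 0.940 to 0.957 with the shared probe set, Gm2022 and Gm2046. It differed between genotypes by only 0.28 at p2 and 0.33 at p10. Slc26a9, an anion transporter, stood at 0.935 and 0.939 with the shared probe set and Gm2022. Lrba stood at 0.909 with Gm2016 and 0.925 with Gm5662, Gm2694 at 0.907 with Gm2016, Rcsd1 at 0.938 with Gm2046, and Sorl1 at 0.939 with Gm5662. Gm2035 had other nearest genes, Gopc at 0.953, Gm11346 at 0.949 and the cytidine deaminase Apobec1 at 0.947. For the 2 probe sets below the filter they were Atf7, Fam20a and Map2k4 (0.912 to 0.939) and C030013C21Rik, Hbb-y and Zfp407 (0.841 to 0.872). The parents had a different set, Hdac2, Bzw1 and Slc25a32 for Eif1a (0.889 to 0.916) and Cct8, Uchl5 and Acp1 for Eif1ax (0.951 to 0.957).

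None of the measured partners of eIF1A at the ribosome passed the test between genotypes. Of all 28941 probe sets, limma called 1 at p2 and 14 at p10. With so few calls, 0 calls in a short list says little about its genes. Unadjusted p was under 0.05 for 2561 of the 28941 at p2 and 2418 at p10. For start-codon selection 20 probe sets were tested (Eif1b, Eif2s2, Eif3 subunits, Eif5, Eif5b and regulators). Limma called 0 at either passage (1 at an unadjusted p under 0.05 at each), with medians of 0.01 at p2 and 0.03 at p10. Eif1, Eif2s1, Eif2s3x, Eif3g and Eif3j2 had no probe set with that symbol alone, and Eif2s3y was below the filter. The largest differences at p2 were those of Eif3j1 and Eif2s2, both 0.24. At p10 they were those of Eif3j1 (0.51, limma adjusted p = 0.550) and Eif3d (0.21, probe set 17312694). A further Eif3d probe set (17318907) differed by 0.04 at p10. Of the 17 probe sets for cap binding and mRNA recruitment 0 were called (4 and 2 at an unadjusted p under 0.05), with medians of 0.06 and -0.01. Eif4a2, an RNA helicase that unwinds mRNA leaders, had the largest value at p2, 0.84 (adjusted p = 0.531), and Dhx29, another helicase of the scanning ribosome, the largest at p10, -0.48 (adjusted p = 0.239). Of the 9 for eIF2 guanine exchange and recycling 0 were called (1 and 2 at an unadjusted p under 0.05), with medians of -0.03 and -0.09. The largest there were Eif2b2 (-0.34) and Mcts1 (0.29) at p2 and Eif2b3 (-0.28) and Eif6 (-0.22) at p10.

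With passage in Tet2-/- cells, where Eif1ax fell, 0 of these 46 probe sets were called without the block, and 285 of all 28941 were. Unadjusted p was under 0.05 for 15 of the 46, and for 5867 of all 28941. The fit with the block called Eif2s2 (-0.46, adjusted p = 0.0618 without and 0.0476 with the block) and Eif2b3 (-0.50, adjusted p = 0.0598 and 0.0333). Their medians were -0.03 for start-codon selection, -0.17 for cap binding and -0.18 for eIF2 exchange. The other measured family member with its own gene elsewhere, Eif1ad, differed between genotypes by -0.04 (adjusted p = 0.952) and -0.21 (adjusted p = 0.777).

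Other genes of the 2-cell-stage embryo were mostly below the filter. The list had 27 probe sets for 26 genes, of which 9 were tested and 0 called at either passage, also at an unadjusted p under 0.05, with medians of 0.02 and 0.07. Of all 28941 probe sets 1 was called at p2 and 14 at p10, and 2561 and 2418 had such an unadjusted p. With these shares, 0 of 9 says little about the list. Its mean over all 27 was 4.30 to 4.42 in Tet2fl/fl and 4.32 to 4.41 in Tet2-/- arrays at p2, and 4.24 to 4.40 against 4.30 to 4.48 at p10. The ranges of the genotypes overlapped at both passages. The largest differences among those tested were those of AF067061 (0.49, adjusted p = 0.585, at p2 and 0.32, adjusted p = 0.804, at p10) and Zscan4a (-0.35, adjusted p = 0.658, at p2), a member of the zinc finger family that marks the 2-cell-like state. Zfp352 differed by 0.02 and 0.16 and Zscan4d by -0.17 and 0.04. Of the 18 probe sets below the filter, 9 had a positive and 9 a negative difference at p2, and 8 and 10 at p10. They ran at p10 from -0.50 for Duxf3, a transcription factor that activates 2-cell genes, to 0.64 for Dppa3, an oocyte and early embryo factor.

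Markers of embryonic stem cells (Pou5f1, Nanog and 5 others) averaged 4.74 to 4.94 in Tet2fl/fl and 4.90 to 4.95 in Tet2-/- arrays at p2, and 4.88 to 5.04 against 4.90 to 5.12 at p10, close to the filter level, with 0 of 5 tested called (0 and 1 at an unadjusted p under 0.05). In the mast cell and basophil list 8 of 10 differences between Tet2-/- and Tet2fl/fl cells were negative at each passage, from -1.14 for Tpsab1 at p2 and -2.48 for the IgE receptor subunit Fcer1a at p10 to 0.45 and 0.38 for Prss34, with Cpa3 at 0.00 at both. The medians were -0.34 and -0.22, and array means were 11.41 to 11.57 in Tet2fl/fl against 11.02 to 11.38 in Tet2-/- arrays at p2. At p10 the means were 11.41 to 11.85 against 10.86 to 11.24. None of the 10 was called without the block, where 1 of all 28941 probe sets was at p2 and 14 at p10. Unadjusted p was under 0.05 for 3 of the 10 at p2 and 5 at p10, and for 2561 and 2418 of all 28941. With the block 1 of the 10 was called at p10, and 34 of all 28941. It was the mast cell tryptase Tpsab1 (-1.72, limma adjusted p = 0.114 without and 0.0490 with the block). The part of cell makeup in the difference of the copies was not tested.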

How the data were processed

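RNA of 12 samples was hybridised to Affymetrix Mouse Gene 2.0 ST arrays. The deposited log2 values were made by the authors with RMA in Affymetrix Power Tools, per the submitters' processing notes; the sources used here give neither versions nor the library file, and scanner files were not used. RMA shares one distribution across arrays and shrinks low signals, which can understate folds. Groups came from the labels. Of 41345 probe sets, 28941 with a mean at or above the 30th percentile (4.70) were tested. Symbols came from the platform's probe annotation (23521 probe sets had 1 symbol, 1814 several and 16010 none).

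The 4 group means were estimated in a single linear model of the 12 arrays (limma 3.58.1, R 4.3.3; 8 residual degrees of freedom), and 2-sided p-values were adjusted by Benjamini and Hochberg over all probe sets within each of 5 contrasts, at a threshold of 0.05. The steps were tested on simulated data. Promoters were aligned with Biopython 1.88. The members and gene lists were chosen with earlier results of these data known. Named were all members, list genes called in a contrast or else the 2 largest differences, and for likeness the 3 probe sets with the highest Pearson correlation; other names, the genes among the copies and the Tmed10 comparison were chosen after values were seen. The number of arrays limits the precision.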

Additional observations from a re-analysis of the deposited data

Results flagged for a closer look

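For 4 of the 6 probe sets of the copies tested, arrays with the same replicate number differed in opposite directions with passage in the 2 genotypes: lower at p10 for all 3 numbers in Tet2fl/fl cells and higher for all 3 in Tet2-/- cells. Gm2016 and Gm2035 did not show this. Of all 28941 probe sets tested 222 (0.767%) did, and 198 (0.684%) showed the reverse. The numbers are not established as pairs, and the 4 were picked out by this pattern. The copies had also been chosen on these same arrays with the genotype difference known. The change in the genotype difference from p2 to p10 was 1.14 for the shared Gm4027/BB287469/Gm5039/Gm2022 probe set, 1.08 for Gm2022, 1.24 for Gm2046 and 2.04 for Gm5662. By limma's test of this change the adjusted p was 1.00 for each, and 0.994 with the replicate number as a block, so it did not pass the test for any of the 4. The 4 probe sets may share probes and are not independent.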

How the results depend on the processing

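Over 22 alternatives (12 that leave out an array and 10 others), the genotype differences of the copies kept their direction. The copies were chosen with these differences known, so the differences and the calls below are described and not tested as findings. Their limma calls did not all hold: at p10 the shared probe set passed the threshold in 19 of 21 alternatives, Gm2022, Gm2046 and Gm5662 in 18 of 22 each, Gm2016 in 8 of 22 and Gm2035 in 4 of 22, and at p2 none did. Among the tested results of the members, the fall of Eif1ax with passage in Tet2-/- cells was no longer called with equal array medians (-0.40, adjusted p = 0.0594), without the filter (-0.43, 0.0638), with only the arrays compared (-0.43, 0.0834) and without 9 single arrays, where the value ran from -0.46 to -0.41; the cause was not tested. The number of copies called higher at p10, 4 of 6, ran from 0 to 6: 0 with only the arrays compared (adjusted p from 0.0997) or without Tet2-/- p10 replicate 2 (from 0.0513), 1 without replicate 2 of Tet2fl/fl p10 and 1 without replicate 3 of Tet2-/- p10, and 6 with array weights or without Tet2-/- p10 replicate 1. The p10 difference stayed between 3.91 and 4.89 for Gm5662, and between 1.34 and 1.84 for Gm2035.

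Deviations of same-numbered arrays from their group means correlated at -0.03 to 0.44 (18 pairs), those of other pairs at -0.34 to 0.20 (36 pairs), and the best match had the same number in 29 of 36 cases. Over probe sets with 1 symbol the same-number correlations were 0.18 to 0.58. As not every pair exceeded 0.1 over all probe sets tested, the block was kept as an alternative, and whether the numbers mark shared cultures is not settled. With the replicate number as a block no member's call changed, while all probe sets called rose from 14 to 34 for genotype at p10 and from 285 to 879 for passage in Tet2-/- cells. Over all alternatives these counts ran from 0 to 54 and from 0 to 1859, and the count for genotype at p2 from 0 to 26 (1 in the fit reported).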
